A study of Homo sapiens with 36 samples.

Results

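The microRNAs hsa-miR-191-5p and hsa-miR-425-5p are cut from a pair of neighbouring hairpins on chromosome 3, and they were taken from the deposited small RNA tables by name. Both were listed in each of the 7 tables, and they make up 2 of the 509 mature miRNA names listed in any of them. The study sequenced 36 small RNA libraries in 12 groups of 3 to compare cells with an added chromosome with cells of the same origin without it. The copy number is written after the chromosome and a slash, so that HCT116 5/4 carries 4 copies of chromosome 5 and HCT116* 3/3 c11 carries 3 copies of chromosome 3. The lines derived from HCT116, a near-diploid colorectal carcinoma line, were HCT116 5/4, HCT116 18/3 c2, HCT116* 3/3 c11 and HCT116* 8/3 c7, where c numbers a clone grown from a single cell, so that each such line is 1 clone, and the asterisk marks stable expression of histone H2B tagged with GFP. The lines derived from RPE1, a retinal pigment epithelial line immortalised with hTERT, were RPE1 5/3 12/3, RPE1* 7/3 and RPE1* 21/3. By the study's description, chromosome 12 in RPE1 5/3 12/3 and chromosomes 9 and 12 in RPE1* 7/3 were gained spontaneously, and HCT116 5/4 and its HCT116 control came from another laboratory than the HCT116 cells behind HCT116*. By the study's methods, all lines except HCT116 5/4, also those with a spontaneous gain, were made by transfer of a donor chromosome in microcells. Their controls did not undergo this transfer. For HCT116 5/4 the methods name the source laboratory and not how the line was made. HCT116 was the control of HCT116 5/4, RPE1 of RPE1 5/3 12/3, and separate sets of RPE1* libraries (numbers 1 to 3 and 11 to 13) of RPE1* 21/3 and RPE1* 7/3. A single set of HCT116* libraries served HCT116* 3/3 c11, HCT116* 8/3 c7 and HCT116 18/3 c2, and the last of these carries no H2B-GFP, so its table also holds any difference between HCT116 and HCT116*.

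A miRNA is processed from a hairpin by Drosha and Dicer and guides Argonaute to messenger RNAs that pair with its seed, bases 2 to 8 from the 5′ end, which lowers their translation and stability. Hairpins that lie close together on one strand are commonly made from 1 primary transcript, so their copy number and transcription are shared, while the processing and the lifetime of each mature strand can differ. Both miR-191 and miR-425 are broadly expressed and are often found at raised levels in carcinomas, among them those of the colon. Their hairpins lie in DALRD3, which encodes a protein that takes part in the methylation of transfer RNAs.

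In the annotation of GRCh37, the build to which the reads were mapped, MIR191 lies on the minus strand of chromosome 3 from 49058051 to 49058142 and MIR425 from 49057581 to 49057667, with 383 bases between them. Of the 15 annotated DALRD3 transcripts, 4 span both hairpins, and in each of these the hairpins are intronic. The reference (MANE) transcript of DALRD3 starts downstream of both hairpins and does not contain them. MIR191 also lies in an intron of a NDUFAF3 transcript on the opposite strand. Chromosome 3 is gained in 1 of the 7 lines, HCT116* 3/3 c11.

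Both mature strands of the miR-191 hairpin are shown, with the seed in capitals, because the seed of each strand sets which messenger RNAs it can pair with (sequences from RefSeq, GRCh38.p14).
hsa-miR-191-5p: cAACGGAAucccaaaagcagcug
hsa-miR-191-3p: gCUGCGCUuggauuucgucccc
Among 2370 human mature miRNA names with a sequence in that reference, 1 has the seed AACGGAA, and it is hsa-miR-191-5p itself. A sequence was found for 416 of the 509 listed names (81.7%), and apart from hsa-miR-191-5p 0 of these 416 matched 6 adjoining bases of this seed at the same positions. Seeds were not compared for hsa-miR-425-5p. The 3p strands hsa-miR-191-3p and hsa-miR-425-3p were listed in 0 tables, which is not particular to the cluster, as only 12 of the 509 listed names (2.36%) end in 3p and 333 (65.4%) end in 5p.

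The values are means that the authors made for each table over 6 libraries, 3 of the line and 3 of its control, of counts divided by size factors. Because a line and its control are pooled in each mean, the tables give a level for the cell background and not for a line alone, and a mean carries no spread between replicates. The tables also hold the authors' own comparison of each line with its control, with errors and p-values, which was not used here. No test was therefore made, and every difference below is a description without an error. Depth cannot be read from the means either. The cell labels were checked against marker miRNAs, given in ppm of the summed means, with a miRNA that a table does not list counted as 0. The 6 miRNAs taken as markers of intestinal epithelium summed to 2006 to 3138 in the HCT116 tables and to 192 to 251 in the RPE1 tables, and most of the sum in HCT116 was hsa-miR-200a-5p (1138 to 2544 against at most 0.584 in RPE1). The sum separates the tables but does not by itself show an intestinal origin. Of the other 5 miRNAs, hsa-miR-200b-5p and hsa-miR-141-5p were listed in 0 RPE1 tables and hsa-miR-192-5p was lower there (166 to 242 against 281 to 586), while the ranges overlapped for hsa-miR-194-5p (16.3 to 139 in HCT116, 3.93 to 24.5 in RPE1) and hsa-miR-215 (5.71 to 23.8 and 4.64 to 7.97). The 2 of pigment epithelium, hsa-miR-204-5p and hsa-miR-211-5p, summed to 3.3 to 4.5 in HCT116 and 380 to 1452 in RPE1 tables, nearly all of it hsa-miR-204-5p. The 2 mesenchymal markers summed to 144 to 267 in HCT116 and 8.81 to 113 in RPE1 tables, most of it hsa-miR-145-5p. By contrast, hsa-miR-143-5p reached at most 1.69 in HCT116 tables and ran from 0.829 to 12.6 in RPE1 tables. It was not listed for HCT116* 3/3 c11, which does not show that it was absent there. Finally, of 3 blood markers only hsa-miR-142-5p was listed, in HCT116 tables (1.90 to 38.6).

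Both miRNAs were abundant among the listed names, and hsa-miR-191-5p was the more abundant in each table. The mean of hsa-miR-191-5p was 58383 in HCT116* 3/3 c11, 50092 in HCT116* 8/3 c7, 50734 in HCT116 18/3 c2 and 51260 in HCT116 5/4, and in the RPE1 tables it was 20032 in RPE1 5/3 12/3, 18539 in RPE1* 7/3 and 22837 in RPE1* 21/3. The 4 HCT116 values lay within 1.17 times of each other and all 3 RPE1 values lay below them. The mean of hsa-miR-425-5p was 13822 in HCT116* 3/3 c11, 11693 in HCT116* 8/3 c7, 14524 in HCT116 18/3 c2 and 8525 in HCT116 5/4, against 3907 in RPE1 5/3 12/3, 4593 in RPE1* 7/3 and 2467 in RPE1* 21/3. Here too the groups of tables did not overlap, and the HCT116 values were spread over 1.7 times, with the lowest in HCT116 5/4. Each table was scaled separately, so these spreads of means also hold differences in scale between tables. As shares of the summed means, the HCT116 values were spread over 1.45 times for hsa-miR-191-5p and 1.22 times for hsa-miR-425-5p. The lowest HCT116 share of hsa-miR-425-5p was that of HCT116* 8/3 c7, at 0.149%.

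In rank, hsa-miR-191-5p stood at place 12 or 13 in the HCT116 tables and at place 16 to 18 in the RPE1 tables, out of 273 to 434 listed miRNAs. The rank of hsa-miR-425-5p ran from 26 to 28 in the HCT116 tables and from 37 to 48 in the RPE1 tables. These places hold among the listed names, of which only 2.36% end in 3p. With all 3p strands included, they could be lower. In the table of the line with 3 copies of chromosome 3, the next miRNA above hsa-miR-191-5p was hsa-miR-26a-5p at a mean of 82730 and the next below was hsa-miR-30e-5p at 34133. The neighbours of hsa-miR-425-5p in that order, hsa-miR-20a-5p at 14131 and hsa-miR-96-5p at 13773, lay much closer to its 13822, and whether they differ from it beyond the spread of the libraries could not be tested. Most of the summed signal belonged to other miRNAs. The most abundant, hsa-miR-21-5p in 6 tables and hsa-miR-100-5p in RPE1* 7/3, exceeded hsa-miR-191-5p 49.8 to 255 times and hsa-miR-425-5p 237 to 1409 times.

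**Figure D1:**
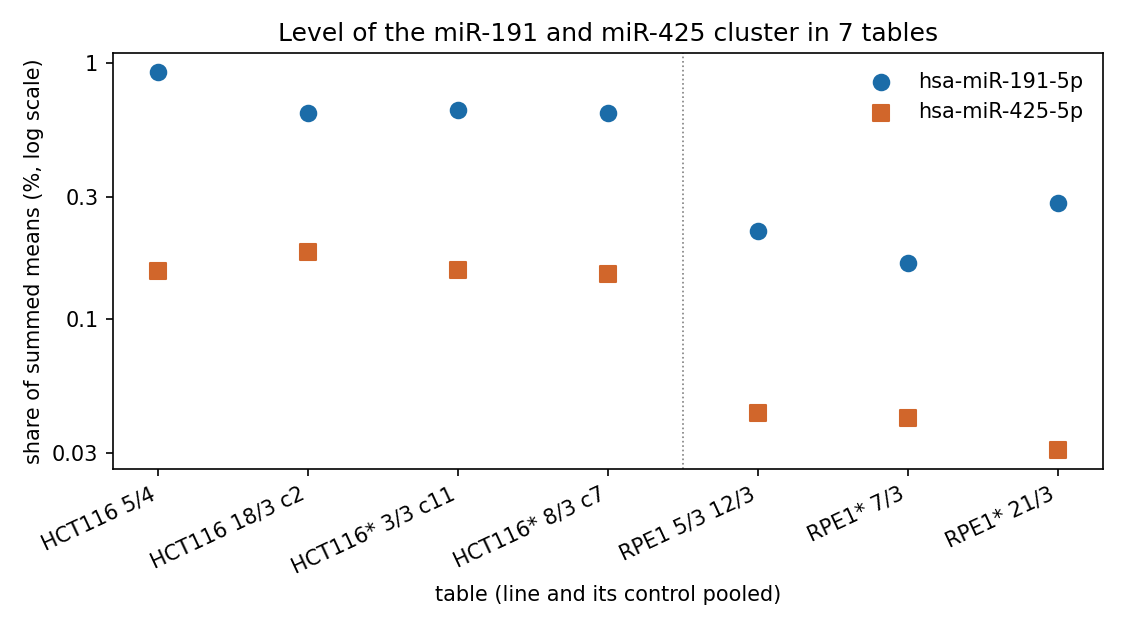
Share of the summed means of a table (percent, log axis) taken by hsa-miR-191-5p (circles) and hsa-miR-425-5p (squares) in the 7 tables, each point 1 pooled mean of a line and its control with no error available. The 4 HCT116 tables (left of the dotted line, 0.638% to 0.922% for hsa-miR-191-5p) lie above the 3 RPE1 tables (0.165% to 0.283%), and HCT116* 3/3 c11 with its gain of chromosome 3 lies among the other HCT116 tables.

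Since the authors scaled each table separately, levels were set side by side between tables as the share of the summed means of a table. The sum runs over the listed names, which include few 3p strands, so a share over all mature strands could be smaller. The share of hsa-miR-191-5p was 0.653% in HCT116* 3/3 c11, 0.639% in HCT116* 8/3 c7, 0.638% in HCT116 18/3 c2 and 0.922% in HCT116 5/4. In RPE1 5/3 12/3 it was 0.220%, in RPE1* 7/3 0.165% and in RPE1* 21/3 0.283%. The table with the gain of chromosome 3 was thus second among the HCT116 tables, with a share close to those of the tables on the same control. The same control libraries enter each of those means and draw the shares together. Neither the place nor the closeness therefore gives the level of the line alone. The share of hsa-miR-425-5p was 0.155% in HCT116* 3/3 c11, 0.149% in HCT116* 8/3 c7, 0.183% in HCT116 18/3 c2 and 0.153% in HCT116 5/4, and it was 0.0429%, 0.0409% and 0.0306% in RPE1 5/3 12/3, RPE1* 7/3 and RPE1* 21/3. For this miRNA, too, the table with the gain held the second place among the HCT116 tables, below HCT116 18/3 c2.

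To ask how the cluster differs between the cell backgrounds, the median log2 share of the 3 RPE1 tables was subtracted from that of the 4 HCT116 tables. The difference was 1.55 for hsa-miR-191-5p, a 2.94-fold higher share in HCT116, and 1.91 for hsa-miR-425-5p, a 3.76-fold higher share. Over the 173 miRNAs with a mean of at least 10 in all 7 tables the median difference was 0.84 with quartiles of -0.16 and 1.98, so the difference of both miRNAs lay inside the middle range of all miRNAs. A larger positive difference was found for 35.8% of miRNAs in the case of hsa-miR-191-5p and for 26.6% in the case of hsa-miR-425-5p. Both had a share in every HCT116 table above that in every RPE1 table, which held for 81 of the 173 miRNAs (46.8%) and is therefore not particular to the cluster. With the geometric mean of these miRNAs as the scale, which moved the median of all miRNAs to 0.04, the differences were 0.76 and 0.97, and the HCT116 tables were still above the RPE1 tables for both members and for 27.2% of all miRNAs. Of the 4 HCT116 tables, 3 share their control libraries, so the tables are not independent.

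In a ratio of 2 miRNAs within a table, a factor common to the whole table cancels, though the size factors of single libraries do not. The ratio was used to ask whether the mature strands of the cluster keep a fixed proportion. The mean of hsa-miR-191-5p was 4.22 times that of hsa-miR-425-5p in HCT116* 3/3 c11, 4.28 times in HCT116* 8/3 c7, 3.49 times in HCT116 18/3 c2 and 6.01 times in HCT116 5/4. The ratio was 5.13 in RPE1 5/3 12/3, 4.04 in RPE1* 7/3 and 9.26 in RPE1* 21/3. The tables on the HCT116* control and that of RPE1* 7/3 were thus the lowest and lay within 3.49 to 4.28, and RPE1* 21/3 was the highest, with the largest share of hsa-miR-191-5p and the smallest share of hsa-miR-425-5p among the RPE1 tables. The higher ratios were those of RPE1* 21/3, HCT116 5/4 and RPE1 5/3 12/3. For these lines alone the study paired replicates in its model because of sequencing batches. Whether the batch bears on the ratio was not tested. The ranges of the HCT116 and RPE1 tables overlapped. HCT116* 3/3 c11 and HCT116* 8/3 c7, whose means hold the same control libraries, had nearly the same ratio. These lines are different clones and differ in the gains of chromosomes 3 and 8. A gain of chromosome 3 adds a copy of both hairpins, so the ratio cannot show whether the members follow the copy number. The values are ratios of means made from sequenced reads, which ligation and amplification can favour unequally for different sequences, so they do not give the proportion of molecules in the cell.

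**Figure D2:**
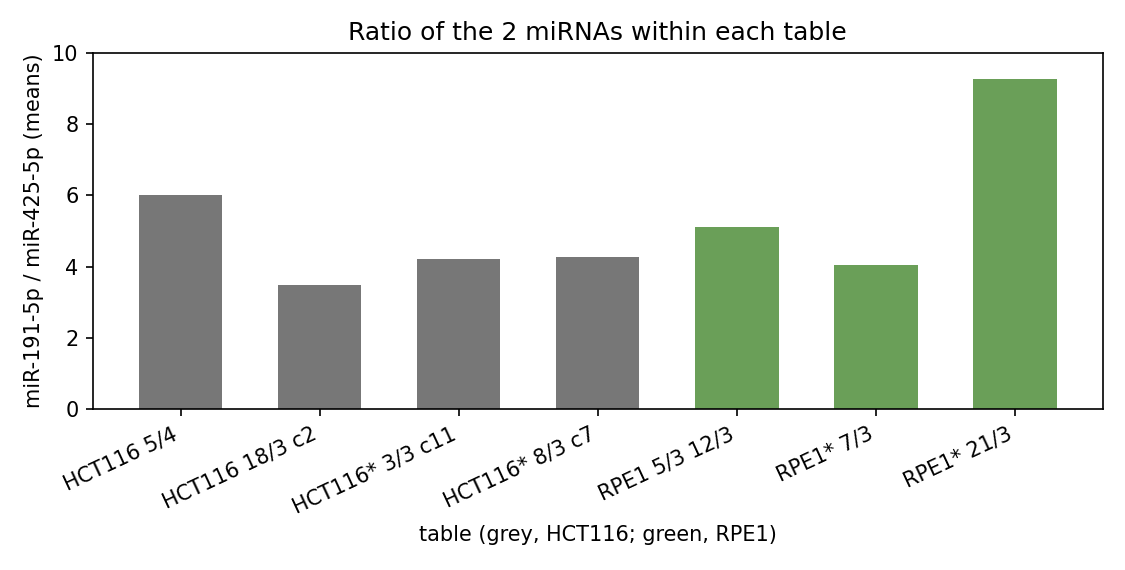
Mean of hsa-miR-191-5p divided by the mean of hsa-miR-425-5p in each of the 7 tables (bars from 0, grey for HCT116 and green for RPE1, 1 pooled value each with no error available). The bar of RPE1* 21/3 reaches 9.26 while the other 6 lie between 3.49 and 6.01.

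Over the 7 tables the log2 ratio of the members had a standard deviation of 0.47, and this was compared with other miRNAs that lie close together. On the same chromosome and strand, within 10 kb, with 1 annotated locus each and a mean of at least 100 in all tables, there were 13 other pairs, and their standard deviations ran from 0.24 to 1.14 with a median of 0.57. A smaller value was found for 4 of the 13, namely hsa-miR-106b-5p with hsa-miR-93-5p (0.24), hsa-miR-182-5p with hsa-miR-96-5p (0.35), and hsa-miR-362-5p with hsa-miR-660-5p (0.40) and with hsa-miR-532-5p (0.45). Some of these pairs share a miRNA and so are not independent. The 7 tables include those with replicates paired for sequencing batches and those without, and the part of batch in these values was not tested. Among all 2850 pairs of the 76 miRNAs with 1 locus at that level, wherever they lie, the median was 1.02 and 8.63% were steadier than the members of this cluster.

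**Figure D3:**
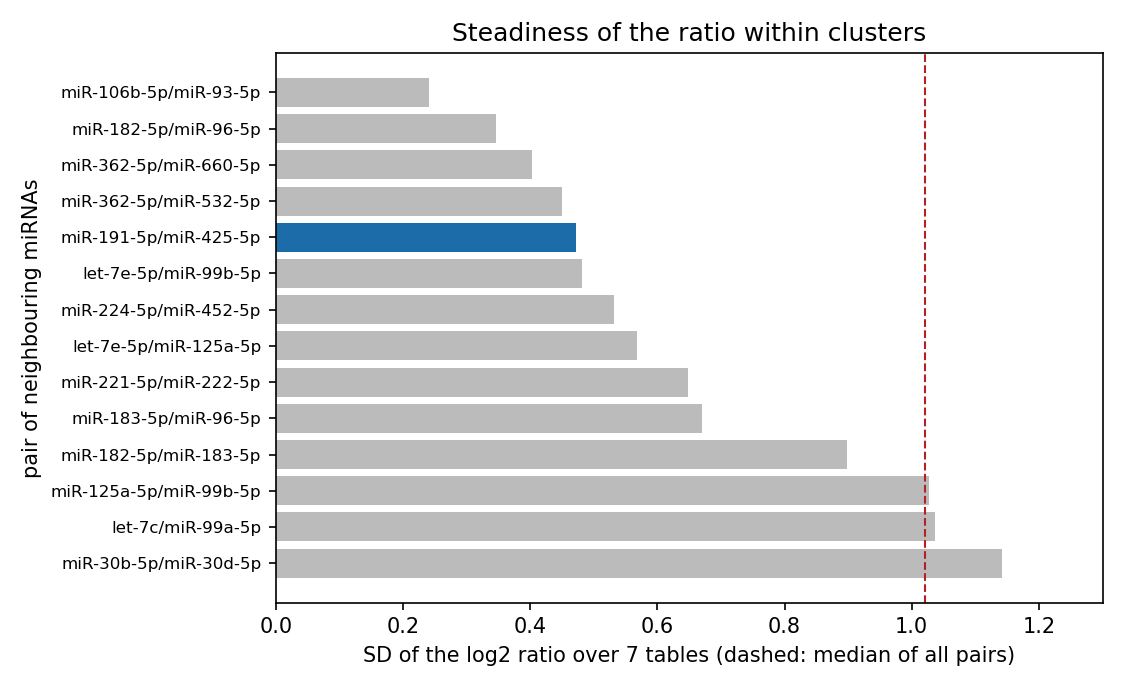
Standard deviation of the log2 ratio over the 7 tables (bars from 0) for 14 pairs of neighbouring miRNAs, with the pair of this cluster in blue and the median of all 2850 pairs as a dashed line. The cluster, at 0.47, is the fifth steadiest and lies below the median of all pairs, 1.02.

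The closest pattern to each member across the tables was not that of the other. Among 99 miRNAs with a mean of at least 100 in all 7 tables, those with the steadiest ratio to hsa-miR-191-5p were hsa-miR-185-5p (standard deviation of the log2 ratio 0.21), hsa-miR-548k (0.26) and hsa-miR-32-5p (0.29), encoded on chromosomes 22, 11 and 9. The partner hsa-miR-425-5p came at place 15. For hsa-miR-425-5p the steadiest were hsa-miR-345-5p (0.23), hsa-miR-641 (0.24) and hsa-miR-32-5p (0.29), on chromosomes 14, 19 and 9, with hsa-miR-191-5p at place 10. The median over the 99 miRNAs was 0.90 for hsa-miR-191-5p and 1.03 for hsa-miR-425-5p. These likenesses rest on 7 pooled values, 3 of which share control libraries.

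The last comparison asked whether the cluster was higher where chromosome 3 is gained. With 3 copies against 2 the copy ratio is 1.5, or 0.58 on the log2 scale. A table mean pools the line with its control, so a miRNA that followed the copy number in HCT116* 3/3 c11 would have a mean 1.25 times that of a table on the same control in whose line it did not change, or 0.32 on the log2 scale. The ratio of means was therefore taken against the other tables on the HCT116* libraries and divided by the median ratio of all miRNAs with a mean of at least 10 in both tables, which was 1.11 against HCT116* 8/3 c7 and 1.21 against HCT116 18/3 c2.

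Against HCT116* 8/3 c7 the ratio was 1.05 for hsa-miR-191-5p and 1.07 for hsa-miR-425-5p, which is 0.07 and 0.09 on the log2 scale. Both lay below 1.25 and inside the middle range of all miRNAs, whose quartiles were -0.20 and 0.14 on the log2 scale. A ratio of at least 1.25 was reached by 0 of the 2 members and by 33 of 273 miRNAs (12.1%), and 34 (12.5%) had a ratio of at most 0.80. As deposited, without division by the median, the ratios were 1.17 and 1.18. Both were short of 1.25. As the mean of both groups moves with any change in the line compared, these values do not give the level of the cluster in HCT116* 3/3 c11 against its own control.

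Against HCT116 18/3 c2 the ratio was 0.95 for hsa-miR-191-5p, or -0.07 on the log2 scale, a direction that turned to 0.20 for the means as deposited and to 0.03 for shares of the summed means. For hsa-miR-425-5p it was 0.79, or -0.35 on the log2 scale, which was past the limit of 0.80 on the low side, where 38 of 268 miRNAs (14.2%) were found. It was not past this limit of -0.32 on the log2 scale under 3 of 4 other settings, at -0.29 with the median taken over means of at least 100, -0.24 for shares and -0.07 as deposited, and it was past it at -0.38 without a limit on the mean. On the high side 44 miRNAs (16.4%) reached 1.25 and again 0 of the 2 members did. The tables of HCT116 18/3 c2 and HCT116* 8/3 c7, in neither of which chromosome 3 is gained, differed from each other by a ratio of 1.38 for hsa-miR-425-5p and of 1.13 for hsa-miR-191-5p after the same division, higher in HCT116 18/3 c2, and 7.3% and 29.2% of 274 miRNAs had a higher ratio. The largest difference of hsa-miR-425-5p among these 3 tables thus lay between the lines without a gain of chromosome 3. Those lines differ in the gains of chromosomes 18 and 8. HCT116 18/3 c2 also carries no H2B-GFP, so its ratios hold any difference between HCT116 and HCT116* as well.

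**Figure D4:**
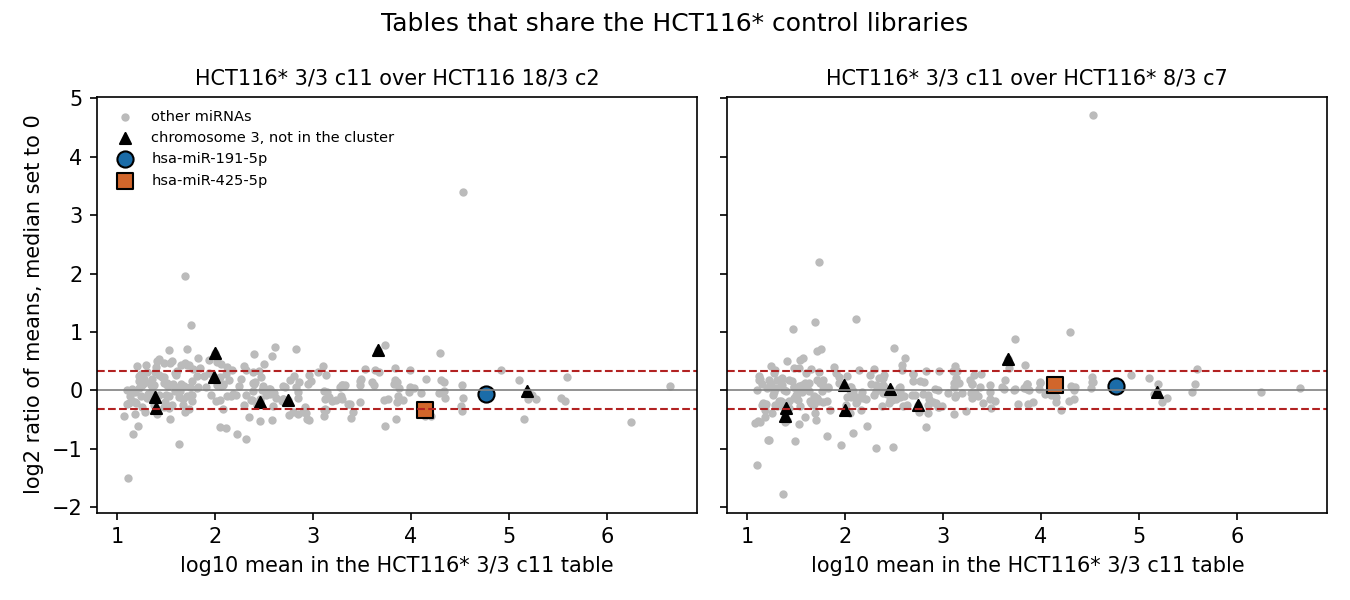
Log2 ratio of means between HCT116* 3/3 c11 and each of the other tables on the HCT116* control libraries, with the median of all miRNAs set to 0, against the log10 mean in HCT116* 3/3 c11. Each point is 1 miRNA with no error available, triangles are other miRNAs of chromosome 3, and dashed lines mark 0.32 and -0.32, so that both members are seen below the upper line in both panels and hsa-miR-425-5p lies just past the lower line at -0.35 against HCT116 18/3 c2, a place it loses under 3 of 4 other settings (-0.29, -0.24 and -0.07).

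The other miRNAs of chromosome 3 were examined in the same way. Together with the cluster, 10 miRNAs whose annotated loci all lie on chromosome 3 passed the limit on the mean. Against HCT116* 8/3 c7 their median log2 ratio was -0.00 beside 0.00 for the 263 other miRNAs, with 5 of 10 above 0 (131, or 49.8%, of the others), 1 at 1.25 or more and 2 at 0.80 or less. Against HCT116 18/3 c2 the median was -0.09 beside 0.01 for the 258 others, with 3 of 10 above 0 (131, or 50.8%, of the others), 2 at 1.25 or more and 1, hsa-miR-425-5p, at 0.80 or less. At a mean of at least 100 in the 3 tables, hsa-miR-28-5p, encoded within LPP, had ratios of 1.45 and 1.60 against HCT116* 8/3 c7 and HCT116 18/3 c2 and was above 1.25 in both. For hsa-let-7g-5p, a member of the let-7 family of differentiation miRNAs and the most abundant of the 6 miRNAs at this level, they were 0.98 and 0.99, close to those of hsa-miR-191-5p. For hsa-miR-15b-5p, of the cell cycle family of miR-15 and miR-16, they were 1.02 and 0.87, and for hsa-miR-548aq-3p 0.84 and 0.89.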

How the data were processed

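The 36 small RNA libraries (12 groups of 3) were read from 1 end. The authors removed poor bases and adapters (cutadapt), used mirdeep2 with hg19 and miRBase to obtain counts per mature miRNA, and applied DESeq2 (version not given in the sources used here) to each line with its control. Because of sequencing batches, replicates were paired in that model for RPE1* 21/3, for HCT116 5/4 and for RPE1 5/3 12/3. The deposited signal used here is the authors' mean over the 6 libraries of a table of counts divided by size factors. The other deposited columns hold the authors' own comparisons of each line with its control (fold change, standard error, statistic and p-values) and were not used.

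Shares, ranks, ratios and standard deviations of log2 ratios were computed with Python 3.11.15, numpy 2.4.6 and pandas 2.3.3, and figures with matplotlib 3.10.9. The functions for ratios and standard deviations were tested on simulated data. Without values of single libraries, depth per library is unknown and no test was made. Positions come from GENCODE 44 on GRCh37, where 439 of 509 names matched a gene (86.2%), 414 lay on 1 chromosome and 20 on chromosome 3. Named miRNAs are the members, the 3 steadiest partners of each, miRNAs of chromosome 3 with a mean of at least 100, the neighbours in rank in HCT116* 3/3 c11, and the most abundant miRNA of each table. The 4 steadier neighbouring pairs were named after their values were seen. Members, lists and limits were chosen with earlier results of these data known. Limits on the mean (10 and 100) and the scaling were varied.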

Additional observations from a re-analysis of the deposited data

How the results depend on the processing

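Leaving out single replicates was not run, since the tables give 1 mean per miRNA. No paired analysis was possible because the tables hold no values of single libraries. The difference between HCT116 and RPE1 tables (log2, hsa-miR-191-5p and hsa-miR-425-5p, main values 1.55 and 1.91) was 0.76 and 0.97 with geometric mean scaling, 1.35 and 1.7 for means as deposited, and 1.81 and 2.08 for shares without the most abundant miRNA. With HCT116 5/4 and 1 table on the HCT116* control, it was 1.80 and 2.03 (HCT116 18/3 c2), 1.82 and 1.91 (HCT116* 3/3 c11), and 1.80 and 1.89 (HCT116* 8/3 c7). It was positive in all of these. The log2 ratio of HCT116* 3/3 c11 over HCT116* 8/3 c7 (0.07 and 0.09) was 0.081 and 0.10 with the median over means of at least 100, 0.22 and 0.24 as deposited, 0.031 and 0.051 for shares, and 0.062 and 0.082 without a limit on the mean. Over HCT116 18/3 c2 (-0.07 and -0.35) it was -0.016 and -0.29, 0.20 and -0.071, 0.033 and -0.24, and -0.11 and -0.38 in the same order. None of these reached 0.32 on the high side. On the low side hsa-miR-425-5p was past -0.32 over HCT116 18/3 c2 in the main setting and without a limit on the mean, and not in the other 3, and the cause of the shifts was not tested. The miRNAs at 1.25 or more numbered 62 as deposited over HCT116* 8/3 c7 (33 in the main setting), and 125 as deposited and 67 for shares over HCT116 18/3 c2 (44), and those at 0.80 or less 19 (34), and 9 and 24 (38). The standard deviation of the log2 ratio of the members was 0.48 over 5 tables with 1 on the HCT116* control, and with a mean of at least 10 the steadier pairs were 7 of 24 in place of 4 of 13. What depth limits could not be judged from pooled means.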
